A study of Mus musculus with 4 samples.

Results

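The 10 genes described here belong to the unfolded protein response and the integrated stress response, which meet in the transcription factor ATF4. They were chosen by name among the 31053 genes counted in both RNA libraries, and all 10 were found. Atf4, Ddit3, Trib3, Chac1, Asns and Psat1 are grouped as integrated stress genes, and Hspa5, Xbp1, Herpud1 and Dnajb9 as unfolded protein genes.

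When unfolded protein builds up in the endoplasmic reticulum (ER), the sensors IRE1, PERK and ATF6 signal to the nucleus. IRE1 splices Xbp1 mRNA into the form that encodes the active factor, ATF6 is cut to free a transcription factor, and PERK phosphorylates eIF2. Several kinases converge on eIF2 in the integrated stress response, which slows translation in general while favouring that of ATF4. Alveolar type 2 (AT2) cells, which secrete surfactant, carry a heavy load of ER protein, and ER stress in them is known from fibrotic lung disease.

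Joint 10x multiome profiles, which count RNA molecules (UMIs) and transposition events in open chromatin in the same nucleus, came from GFP+ AT2 cells sorted from the lungs of male mice, which had been injured with bleomycin 8 days earlier. The CKO genotype was SftpcCreERT2; Rosa26mTmG; IPF/F, and the control genotype was SftpcCreERT2; Rosa26mTmG. Both thus carried the inducible Cre driven by the surfactant protein C gene and the membrane reporter, and both received bleomycin. The CKO mice also carried floxed alleles of IP (gene symbol Ptgir), a receptor for prostaglandin I2, so that deletion is aimed at cells of the AT2 lineage. The number of mice behind a library and their age are not given in the sources used here.

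There was 1 library per genotype, so no difference has a replicate check and no p-value is given. All intervals (95%) cover counting error alone. Deposited barcodes numbered 10925 in the CKO library, with a sum of 30818808 UMIs and 37365247 peak counts, and 13569 in the control library, with 48378328 UMIs and 47307986 peak counts. After filtering, 3883 nuclei of the CKO library and 2173 control nuclei were kept, and 17 kept barcodes had the same sequence in both. Clusters with the markers of alveolar epithelium held 2332 nuclei of the CKO library and 2052 control nuclei. These divided into AT2-like nuclei (1351 in the CKO library and 1665 in control), transitional-like nuclei (541 in the CKO library and 199 in control) and alveolar type 1 (AT1)-like nuclei (440 in the CKO library, 188 in control). The AT1-like nuclei also carried transitional markers, with a mean log2 fold of 1.21 for these and 1.40 for AT1 markers over the other clusters. Transitional-like nuclei were named from a marker list that includes keratins, on a lower mean log2 fold of 0.62. At a coarser clustering (resolution 0.3) and without a mitochondrial limit, no AT1-like cluster was named. The transitional-like cluster then scored on both lists (1.16 transitional and 0.93 AT1, and 1.15 and 0.94), so the border between these 2 classes is loose. The remaining nuclei of the CKO library were mostly leukocyte-like, which goes against the sorted cell type on the label. Ptgir had 1 UMI in alveolar nuclei of the CKO library and 0 in control nuclei, so its RNA says nothing about the label.

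Promoter sequence is shown for the members whose RefSeq promoter (250 bases before to 50 after the start, GRCm38.p6) held a match to a known stress element. The 4 elements searched on both strands were TGATGNAA, the core of the ATF4 element, the ER stress element and the ER stress element II, longer patterns given here by name, and TGACGTGG, an element of XBP1 and ATF6. All 10 members had a promoter in the RefSeq table. Capitals mark the matches, and each sequence is written on the strand of its gene.
Trib3, chr2:152344028-152344057, minus strand: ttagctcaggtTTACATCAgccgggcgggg
Chac1, chr2:119351019-119351086, plus strand: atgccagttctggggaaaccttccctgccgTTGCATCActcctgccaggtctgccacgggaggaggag
Asns, chr6:7693210-7693262, minus strand: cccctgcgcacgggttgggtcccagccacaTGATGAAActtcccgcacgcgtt
Hspa5, chr2:34771995-34772073, plus strand: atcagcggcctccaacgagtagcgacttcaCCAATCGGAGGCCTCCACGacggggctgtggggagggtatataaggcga
Herpud1, chr8:94386287-94386417, plus strand: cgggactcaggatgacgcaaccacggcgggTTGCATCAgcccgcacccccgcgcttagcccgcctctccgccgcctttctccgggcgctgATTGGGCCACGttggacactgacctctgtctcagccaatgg

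The ATF4 element core was found in 4 of the 10 members, against 4.06% of 27025 promoters. In Asns it lay at -23 to -16 from the start on the strand of the gene, and in Chac1 at -193 to -186, in Herpud1 at -112 to -105 and in Trib3 at 14 to 21 on the opposite strand. Hspa5 held the ER stress element at -65 to -47, a match found in 0.13% of promoters. Herpud1 alone among the members held both kinds of element, with the ER stress element II at -52 to -42, which 0.037% of promoters hold. No member held TGACGTGG, present in 0.607% of promoters, and no match overlapped another. A match describes the letters of this window and does not show that a factor binds there.

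Across all alveolar nuclei, the 10 genes did not differ between the libraries as a block. Relative to the median gene, Herpud1 and Psat1 were higher in the CKO library, and Atf4, Ddit3, Hspa5 and Dnajb9 were lower. The interval of Psat1 held 0. Trib3, Asns and Xbp1 lay within 1.5-fold, and Chac1 had too few UMIs to compare. Levels are UMIs of a gene in 1000000 nuclear-encoded UMIs (CPM). The median gene had a log2 ratio of 0.47, CKO library over control, so each log2 ratio below is the CPM ratio less this shift, and a gene is called higher or lower past 1.5-fold on that relative scale. By this rule 2 of the 9 members with at least 20 UMIs were higher, against 15.7% of 13679 genes, and 4 were lower, against 17.1%. The median of the members was -0.03, beside a middle range (25th to 75th percentile) of -0.40 to 0.38 for all genes. On CPM as such, a scale that raises all genes alike by the shift, the split was 4 higher and 1 lower, against 42.3% and 6.35% of all genes.

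Herpud1, an ER membrane protein of the degradation machinery, had 1134 UMIs (168 CPM) in the CKO library and 433 UMIs (72.6 CPM) in control, a relative log2 ratio of 0.74 (0.58 to 0.90). Dnajb9, a luminal cochaperone of BiP that restrains IRE1, had 422 UMIs (62.6 CPM) in the CKO library and 609 UMIs (102 CPM) in control, a relative log2 ratio of -1.18 (-1.36 to -0.995). These lay on opposite sides although both belong to the unfolded protein genes. Hspa5, which encodes the main ER chaperone BiP, had 1563 UMIs (232 CPM) in the CKO library and 1773 UMIs (297 CPM) in control, a relative log2 ratio of -0.83 (-0.93 to -0.73). Xbp1, the transcript spliced by IRE1, had 383 UMIs (56.8 CPM) in the CKO library and 185 UMIs (31.02 CPM) in control. Its relative log2 ratio of 0.40 (0.15 to 0.66) was above the median gene but within 1.5-fold, and UMI counts do not separate its spliced and unspliced forms.

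Among the integrated stress genes, Atf4 itself had 780 UMIs (116 CPM) in the CKO library and 826 UMIs (139 CPM) in control, a relative log2 ratio of -0.73 (-0.87 to -0.59). ATF4 output is set largely by translation, which these data do not measure. Ddit3, which encodes the pro-apoptotic factor CHOP, had 96 UMIs (14.2 CPM) in the CKO library and 126 UMIs (21.1 CPM) in control, a relative log2 ratio of -1.04 (-1.44 to -0.65). Trib3, a pseudokinase induced by ATF4 and CHOP, had 66 UMIs (9.78 CPM) in the CKO library and 43 UMIs (7.21 CPM) in control, a relative log2 ratio of -0.03 (-0.61 to 0.56). Atf4 and Ddit3 were thus both lower, while Trib3 stood at the median gene.

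The amino acid genes were on the other side of the median gene or near it. Asns, asparagine synthetase, had 80 UMIs (11.9 CPM) in the CKO library and 46 UMIs (7.71 CPM) in control, a relative log2 ratio of 0.15 (-0.39 to 0.71). Psat1, an aminotransferase of serine synthesis, had 61 UMIs (9.04 CPM) in the CKO library and 24 UMIs (4.02 CPM) in control. Its relative log2 ratio was 0.70, with an interval (-0.0048 to 1.44) that held 0. Chac1, which degrades glutathione, had 10 UMIs in the CKO library and 1 UMI in control, which is under the minimum for a comparison. Its relative log2 interval of -0.14 to 8.11 held 0.

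Dnajb9 was lower in 18 of 18 alternative processings and each of the other called members kept its sign, but several lost the 1.5-fold call. Herpud1 fell short of it without a limit on mitochondrial RNA (0.53) and without any filter (0.44), and Psat1 without the deepest 5% of nuclei (0.49) and as a mean over nuclei (0.21). Without the shift to the median gene, Hspa5 fell short as a CPM ratio (-0.36) and as a CPM ratio with the rRNA-like loci also out of the total (-0.52), as did Atf4 (-0.26 and -0.42). Ddit3 fell short as a CPM ratio (-0.57), and Ddit3 (-0.42) and Atf4 (-0.49) after thinning to 1000 UMIs. Thinning also put Asns past 1.5-fold higher (0.96) and Trib3 past 1.5-fold lower (-0.60), and left Psat1 under the minimum. Gm42418, a locus that overlaps ribosomal RNA, took 6.07% of UMIs in alveolar nuclei of the CKO library and 13.3% in control. Median UMI counts per nucleus were 2674.5 in the CKO library and 2106.5 in control, and median mitochondrial shares 10.3% in the CKO library and 11.8% in control. The part of these in the ratios was not tested beyond the alternatives given.

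**Figure D1:**
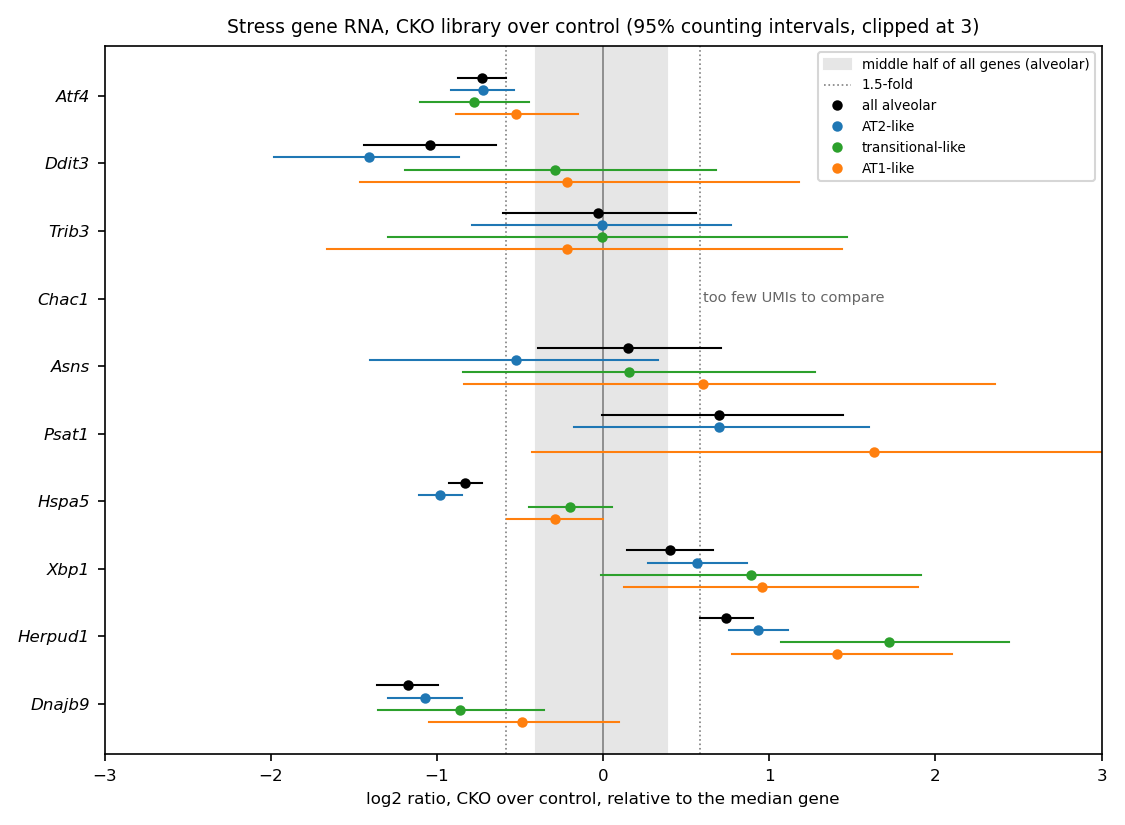
Relative log2 ratios (CKO library over control, median gene at 0) with 95% counting intervals, for all alveolar nuclei and each class, with the middle range of all genes as a grey band and 1.5-fold as dotted lines. Herpud1 lies to the right in all 4 sets, from 0.74 to 1.72, while Hspa5 lies at -0.98 in AT2-like nuclei and at -0.20 and -0.29 in the transitional-like and AT1-like nuclei.

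The split by class showed which differences recurred. Herpud1 was higher in all 3 classes. It had 748 UMIs (217 CPM) in AT2-like nuclei of the CKO library and 389 (84.1 CPM) in control, a relative log2 ratio of 0.93 (0.76 to 1.11). In transitional-like nuclei it had 209 UMIs (139 CPM) in the CKO library and 21 (34.6 CPM) in control, a relative log2 ratio of 1.72 (1.07 to 2.44). AT1-like nuclei had 177 UMIs (98.5 CPM) in the CKO library and 23 (31.5 CPM) in control, with 1.41 (0.77 to 2.10). The level intervals of the 2 libraries did not overlap in any of the 3 classes. Xbp1 leaned the same way, at 68.7 CPM in the CKO library and 34.4 CPM in control in AT2-like nuclei (0.57, 0.27 to 0.87), just inside 1.5-fold. It was past 1.5-fold in transitional-like nuclei (0.89, on 67 UMIs in the CKO library and 12 in control) and in AT1-like nuclei (0.96, on 79 UMIs in the CKO library and 14 in control), with intervals of -0.01 to 1.91 and 0.13 to 1.89.

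The lower genes were less even across classes. Hspa5 was lower in AT2-like nuclei, at 214 CPM in the CKO library and 312 CPM in control (-0.98, -1.11 to -0.85). In transitional-like nuclei it stood at 325 CPM in the CKO library and 307 CPM in control (-0.20, -0.45 to 0.05), and in AT1-like nuclei at 188 CPM in the CKO library and 195 CPM in control (-0.29), both within 1.5-fold. Ddit3 likewise was lower in AT2-like nuclei, on 39 UMIs (11.3 CPM) in the CKO library and 103 UMIs (22.3 CPM) in control (-1.41, -1.98 to -0.87). It was nearly level in transitional-like nuclei, at 24.6 CPM in the CKO library and 24.7 CPM in control, and its interval of -1.19 to 0.68 spans both directions. Atf4 was lower in AT2-like (-0.72) and transitional-like nuclei (-0.78) and within 1.5-fold in AT1-like nuclei (-0.52). Dnajb9 was lower at -1.07 (AT2-like) and -0.86 (transitional-like) and within 1.5-fold at -0.49 (AT1-like). Differences between classes in these ratios were not tested.

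In counts, AT2-like nuclei had 2 of 9 compared members higher (15.9% of all genes there) and 4 lower (18.6%). The 2 higher ones were Herpud1 and Psat1 (0.70, -0.17 to 1.60), the latter with an interval that held 0. Transitional-like nuclei had 2 of 8 higher (17.7% of all genes) and 2 lower (12.8%). AT1-like nuclei had 4 of 9 higher (17.4%) and 0 lower (12.5%). The 4 were Herpud1, Xbp1, Asns (0.60, on 22 UMIs in the CKO library and 5 in control) and Psat1 (1.63, on 18 UMIs in the CKO library and 2 in control). The intervals of Asns and Psat1 there held 0.

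**Figure D2:**
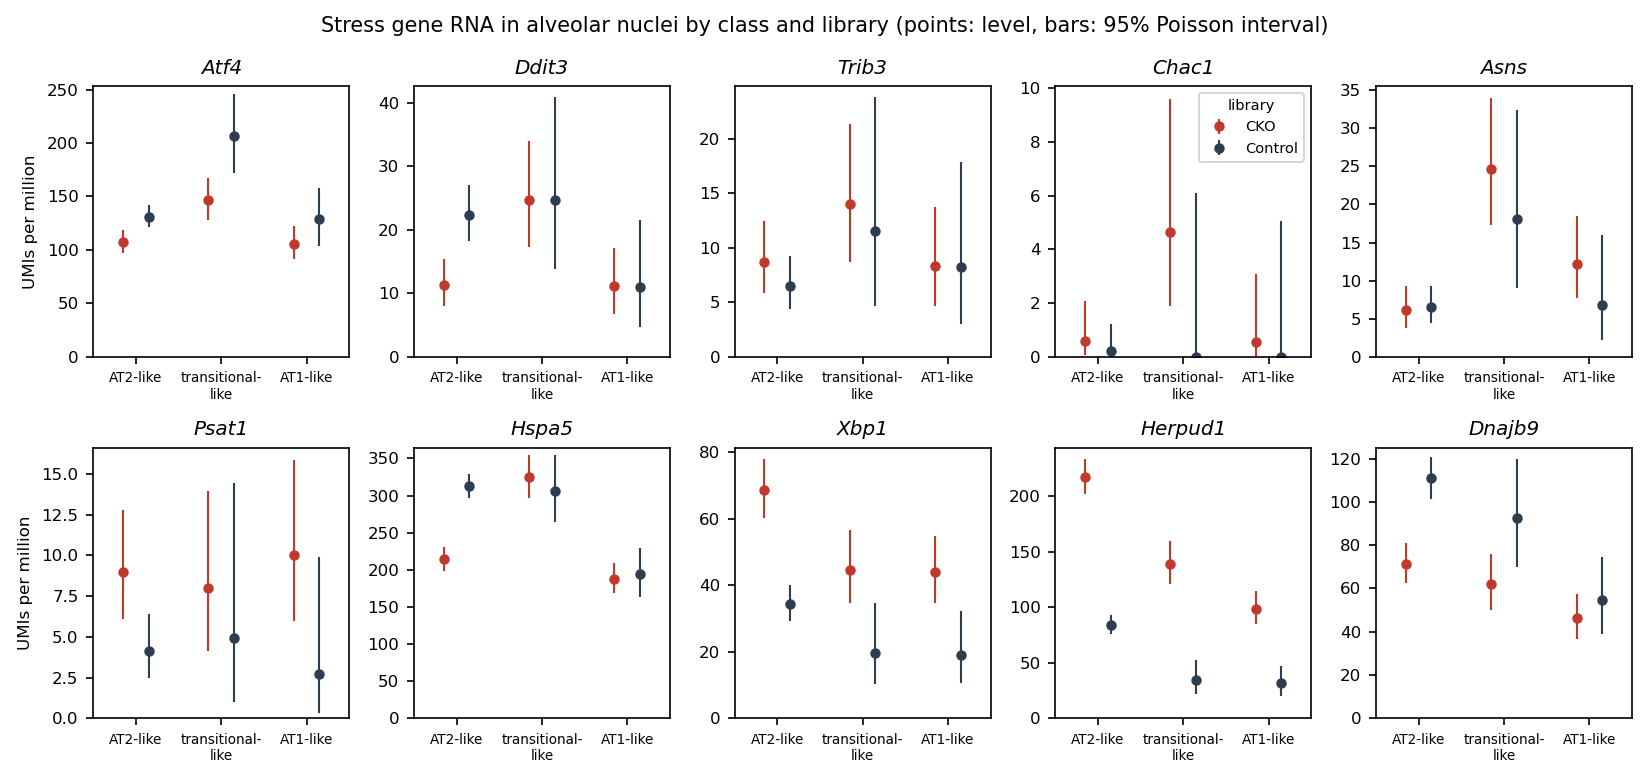
CPM of each of the 10 genes in the 3 alveolar classes, CKO library left of control, with 95% Poisson intervals. Herpud1 is higher in the CKO library in each class (217, 139 and 98.5 CPM in the CKO library against 84.1, 34.6 and 31.5 CPM in control), and Asns has its highest level in transitional-like nuclei of both libraries (24.6 CPM in the CKO library and 18.1 CPM in control).

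The AT2-like class was held by different clusters in the 2 libraries, and the ratios within clusters differed from those of the class. Cluster 0, rich in surfactant RNA, held 1154 nuclei of the CKO library and 141 of control. Cluster 2 held 15 nuclei of the CKO library and 802 of control. Cluster 1, shallow at median UMI counts of 1110 in the CKO library and 1171 in control, held 182 nuclei of the CKO library and 722 of control. Within cluster 0, Herpud1 stood at 219 CPM in the CKO library and 77.3 CPM in control (1.23, 0.76 to 1.73), and within cluster 1 at 190 CPM in the CKO library and 58.2 CPM in control (1.32, 0.69 to 1.94). Hspa5 stood at 195 CPM in the CKO library and 266 CPM in control in cluster 0 (-0.73, -0.998 to -0.45). In cluster 1 its values were 500 CPM in the CKO library and 318 CPM in control (0.26, -0.07 to 0.59). Dnajb9 was within 1.5-fold inside both clusters, at 0.04 (-0.53 to 0.66) in cluster 0 and -0.18 (-0.93 to 0.51) in cluster 1. Its highest AT2-like level was in cluster 2 of control, at 126 CPM on 401 UMIs, a cluster nearly absent from the CKO library. Ddit3 in cluster 0 had 34 UMIs (10.6 CPM) in the CKO library and 5 UMIs (9.91 CPM) in control, with an interval (-1.54 to 1.53) too wide to place it. In cluster 1 it was past 1.5-fold lower (-0.64, -2.64 to 0.93) on 4 UMIs in the CKO library and 21 in control, with an interval that held 0. Atf4, lower in the AT2-like class, was within 1.5-fold in both clusters and on opposite sides of the median gene. In cluster 0 it was at 98.8 CPM in the CKO library and 121 CPM in control (-0.57, -0.97 to -0.15). In cluster 1 it was at 233 CPM in the CKO library and 127 CPM in control (0.49, -0.02 to 0.98). In cluster 0, 2 of 9 compared members were higher (19.7% of all genes) and 2 lower (14.6%), and in cluster 1, 1 of 6 was higher (22.3%) and 1 lower (21.2%).

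Leukocyte markers differed between the libraries even in alveolar nuclei. Neutrophil markers summed to 182 CPM in alveolar nuclei of the CKO library, with 1 of 9 markers at 0, and to 62.0 CPM in control nuclei, with 4 of 9 at 0. Nearly all of the control sum was Hdc (60.7 CPM), which was level between the libraries (59.6 CPM in the CKO library). The next highest marker in control was Il1r2, at 0.50 CPM against 13.6 CPM in the CKO library. S100a9 had 382 UMIs in alveolar nuclei of the CKO library and 0 in control, and S100a8 had 215 in the CKO library and 0 in control. Across the 3 classes the neutrophil sum ranged from 155 to 197 CPM in the CKO library and from 15.1 to 74.999 CPM in control. Macrophage and monocyte markers summed to 105 CPM in the CKO library (0 of 14 at 0) and 41.8 CPM in control (2 of 14 at 0), and T and NK markers to 25.8 CPM in the CKO library (0 of 13 at 0) and 12.6 CPM in control (5 of 13 at 0). Among the macrophage and monocyte markers, Csf1r went the other way (7.12 CPM in the CKO library and 18.6 CPM in control), and Cd68 and Mertk were near level. B cell markers were closer between the libraries, at sums of 19.9 CPM in the CKO library and 15.1 CPM in control. Plasma cell markers summed to 218 CPM in the CKO library, with Iglc2 and Ighg1 of the 7 at 0, and to 123 CPM in control, with Ighg1 at 0. Most of that sum was Sdc1, which epithelium also expresses, at 171 CPM in the CKO library and 97.8 CPM in control. Jchain had 25 UMIs in the CKO library and 3 in control, and Igha 35 in the CKO library and 3 in control. The part of plasma cell RNA in the ratios was not tested. Leaving out nuclei with any UMI of 7 leukocyte genes gave relative log2 ratios of 0.82 for Herpud1, 0.59 for Psat1, -0.66 for Atf4, -1.20 for Ddit3, -0.78 for Hspa5 and -1.07 for Dnajb9. All were still past 1.5-fold, Psat1 only just. This filter does not remove leukocyte RNA from nuclei in which none of these UMIs was counted. The part of such RNA in the ratios was therefore not tested.

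Levels by class within a library were compared over 11 classes of the CKO library and 4 of control. Of 130 neighbouring pairs in these orders, 2 had intervals that did not overlap, both for Hspa5, so most steps in the orders below lay within counting error. Hspa5 stood highest in neutrophil-like nuclei of the CKO library (362 CPM, 322 to 407), with B-like (329 CPM), transitional-like (325 CPM) and fibroblast-like nuclei (306 CPM) next, and lowest in ciliated-like nuclei (138 CPM). The first gap fell between macrophage and monocyte-like nuclei (273 CPM) and AT2-like nuclei (214 CPM). In control the gap fell between transitional-like (307 CPM) and AT1-like nuclei (195 CPM), with AT2-like nuclei at 312 CPM. T and NK-like nuclei stood highest there, at 368 CPM on 41 UMIs. AT2-like nuclei therefore stood with transitional-like nuclei in control and apart from them in the CKO library. T and NK-like nuclei also had less Hspa5 in the CKO library, at 211 CPM (181 to 246) against 368 CPM (264 to 500) in control. These intervals did not overlap, so the lower Hspa5 level was not confined to AT2-like nuclei.

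Herpud1 had its highest level in AT2-like nuclei of both libraries (217 CPM in the CKO library and 84.1 CPM in control). In the CKO library it was lowest in fibroblast-like nuclei (49.7 CPM on 13 UMIs). T and NK-like nuclei, the only other class with 50 nuclei in both libraries, had 98.2 CPM (77.6 to 123) in the CKO library and 62.9 CPM (25.3 to 130, on 7 UMIs) in control. Xbp1 was led in the CKO library by fibroblast-like (130 CPM), endothelial-like (120 CPM) and B-like nuclei (110 CPM), with AT1-like nuclei last (44.0 CPM). Dnajb9 ranged from 94.96 CPM in B-like to 19.7 CPM in ciliated-like nuclei of the CKO library, and in control from 111 CPM in AT2-like to 54.8 CPM in AT1-like nuclei.

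For the integrated stress genes, neutrophil-like nuclei of the CKO library had the highest Ddit3 level (46.9 CPM, 33.0 to 64.6), above AT2-like (11.3 CPM, 8.04 to 15.5) and AT1-like nuclei (11.1 CPM, 6.80 to 17.2). Asns in the CKO library was 24.6 CPM (17.3 to 34.0) in transitional-like and 6.09 CPM (3.77 to 9.31) in AT2-like nuclei. In control these were 18.1 CPM (9.06 to 32.5) and 6.48 CPM (4.37 to 9.26), so the same order was seen, with intervals that just overlapped. Transitional-like nuclei also had the highest Trib3 level in both libraries (14.0 CPM in the CKO library and 11.5 CPM in control), on 21 UMIs in the CKO library and 7 in control. They held 7 of the 10 Chac1 UMIs of alveolar nuclei in the CKO library. Atf4 was highest in transitional-like nuclei of control (206 CPM), and in the CKO library 6 classes lay between 138 and 147 CPM. Psat1 stood highest in B-like nuclei of the CKO library (21.9 CPM on 3 UMIs), with T and NK-like nuclei at 20.1 CPM on 16 UMIs, against 8.99 CPM in AT2-like nuclei.

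**Figure D3:**
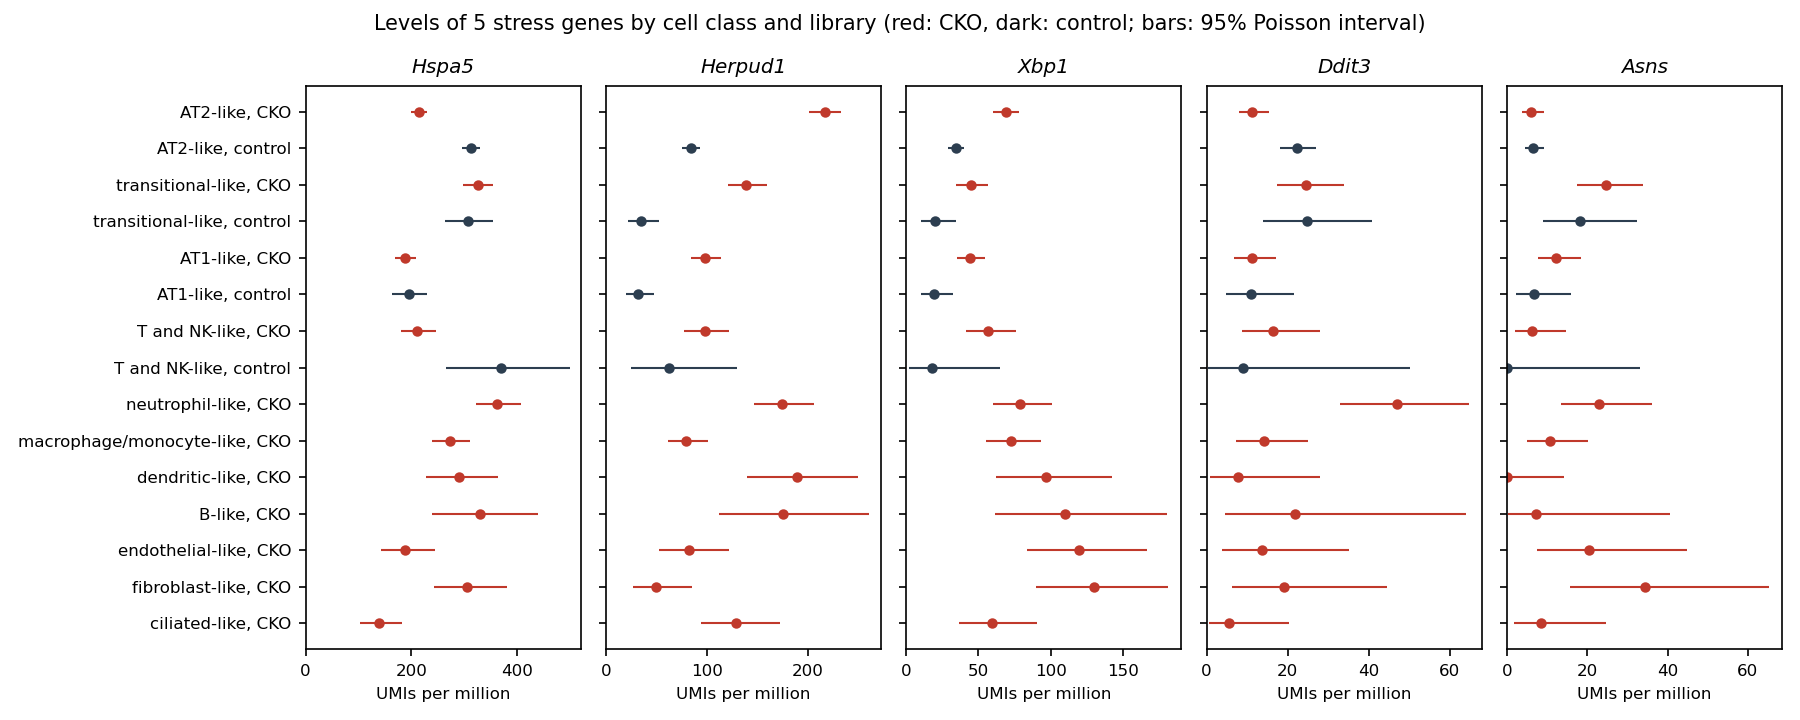
CPM of Hspa5, Herpud1, Xbp1, Ddit3 and Asns in each class with at least 50 nuclei in a library, red for the CKO library and dark for control, with 95% Poisson intervals. Ddit3 reaches 46.9 CPM in neutrophil-like nuclei, and Hspa5 in AT2-like nuclei lies at 214 CPM in the CKO library and 312 CPM in control.

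At full depth, nuclei with a Ddit3 UMI carried more Hspa5 RNA in transitional-like nuclei of the CKO library and in AT2-like nuclei of control. The intervals did not overlap, but they take each UMI as independent and leave out variation between nuclei. For the transitional-like nuclei, thinning left too few UMIs to check the excess, as given below. In transitional-like nuclei of the CKO library, the 31 nuclei with a Ddit3 UMI had 557 CPM of Hspa5 (432 to 708) and the 510 without had 305 CPM (276 to 335). The same 31 nuclei had 74.9 CPM of Asns (34.2 to 142) and 49.9 CPM of Trib3 (18.3 to 109), against 20.3 and 10.9 CPM in the 510 others. AT2-like nuclei of the CKO library had 287 CPM of Hspa5 (207 to 388) in the 37 nuclei with a Ddit3 UMI and 211 CPM (195 to 227) in the 1314 without. In control the 86 AT2-like nuclei with a Ddit3 UMI had 492 CPM of Hspa5 (431 to 559) and the 1579 without had 292 CPM (276 to 309). Dnajb9 in those control nuclei was 168 CPM (133 to 209) with and 104 CPM (94.7 to 115) without. AT2-like nuclei with a Ddit3 UMI were deeper than those without, at median UMI counts of 3623 against 2128 in the CKO library and 3708 against 1654 in control. Transitional-like nuclei with one were deeper in the CKO library (3115 against 2376) but not in control (2350 against 2551). With every nucleus thinned to 1000 UMIs, AT2-like nuclei with a Ddit3 UMI had 842 CPM of Hspa5 in the CKO library, on 16 UMIs in 19 nuclei, against 211 CPM in those without. In control these had 737 CPM, on 14 UMIs in 19 nuclei, against 305 CPM in those without. The 14 transitional-like control nuclei with a Ddit3 UMI showed no such excess, at 142 CPM of Hspa5 (52.2 to 310) against 319 CPM (274 to 369) in the 185 without, and the same held for AT1-like nuclei. These had 121 CPM (64.5 to 207) with a Ddit3 UMI against 192 CPM (171 to 214) without in the CKO library, and 98.6 CPM (20.3 to 288, on 3 UMIs) against 199 CPM (167 to 235) in control. After thinning, the 10 transitional-like nuclei of the CKO library with a Ddit3 UMI had 3 Hspa5 UMIs (300 CPM). The 494 without had 161 UMIs (326 CPM). With only 3 UMIs, thinning can neither show nor remove the excess seen there at full depth.

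Other genes of these pathways spread to both sides in alveolar nuclei, as the members did. The counts below stand beside the 15.7% of all genes that were higher and the 17.1% that were lower. Of 18 compared sensors and eIF2 factors, 2 were higher and 3 lower, with a median relative log2 ratio of -0.04. Atf6, the ER-anchored factor, stood at 167 CPM in the CKO library and 270 CPM in control (-1.16, -1.27 to -1.05). Ppp1r15a, the stress-induced subunit that returns eIF2 to its unphosphorylated state, stood at 49.2 CPM in the CKO library and 78.7 CPM in control (-1.15, -1.35 to -0.94). On the higher side were Eif2b5 (0.95) and Eif2b2 (0.71), subunits of the eIF2 exchange factor. Among 27 further targets attributed to ATF4, 4 were higher and 8 lower, with a median of -0.15. The stress cytokine Gdf15 was at 23.3 CPM in the CKO library and 62.7 CPM in control (-1.90, -2.18 to -1.63), and Cth, an enzyme of cysteine synthesis, at 15.3 CPM in the CKO library and 35.9 CPM in control (-1.70). In the other direction, Eif4ebp1, a repressor of cap-dependent translation, had 62 UMIs in the CKO library and 14 in control (1.499, 0.65 to 2.45), and Vldlr, a lipoprotein receptor, was at 76.8 CPM in the CKO library and 32.9 CPM in control (0.75).

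The 12 tRNA synthetases had a median of 0.30, with 1 higher and 0 lower. Gars (0.75) was past 1.5-fold and Tars (0.58) just inside it, while Eprs (-0.55) and Sars (-0.40) lay lowest. Of 22 ER chaperones and foldases, 2 were higher and 1 lower, with a median of -0.06. Dnajb11, a cochaperone of BiP, was at 37.8 CPM in the CKO library and 16.9 CPM in control (0.69), the opposite side from Dnajb9 and Hspa5. Sdf2l1, named after its values were seen, was also past 1.5-fold (1.02) on 19 UMIs in the CKO library and 6 in control, with an interval (-0.37 to 2.63) that held 0. Creld2 stood at 0.51, the oxidase gene Ero1lb at -0.59 and Sil1, the exchange factor of BiP, at -0.55. ER-associated degradation, the pathway of Herpud1, had 2 of 20 higher and 1 lower, with a median of -0.05. Erlec1 (0.73) and Derl2 (0.64) were its highest genes and the mannosidase-like Edem3 (-0.62) and Edem1 (-0.55) its lowest. Of 23 genes of ER translocation and export, 2 were higher and 1 lower, with a median of 0.17, led by Kdelr3 (1.01, on 41 UMIs in the CKO library and 13 in control) and the signal peptidase subunit Spcs3 (0.86), with Srp54a (-0.62) and Srpr (-0.43) lowest.

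**Figure D4:**
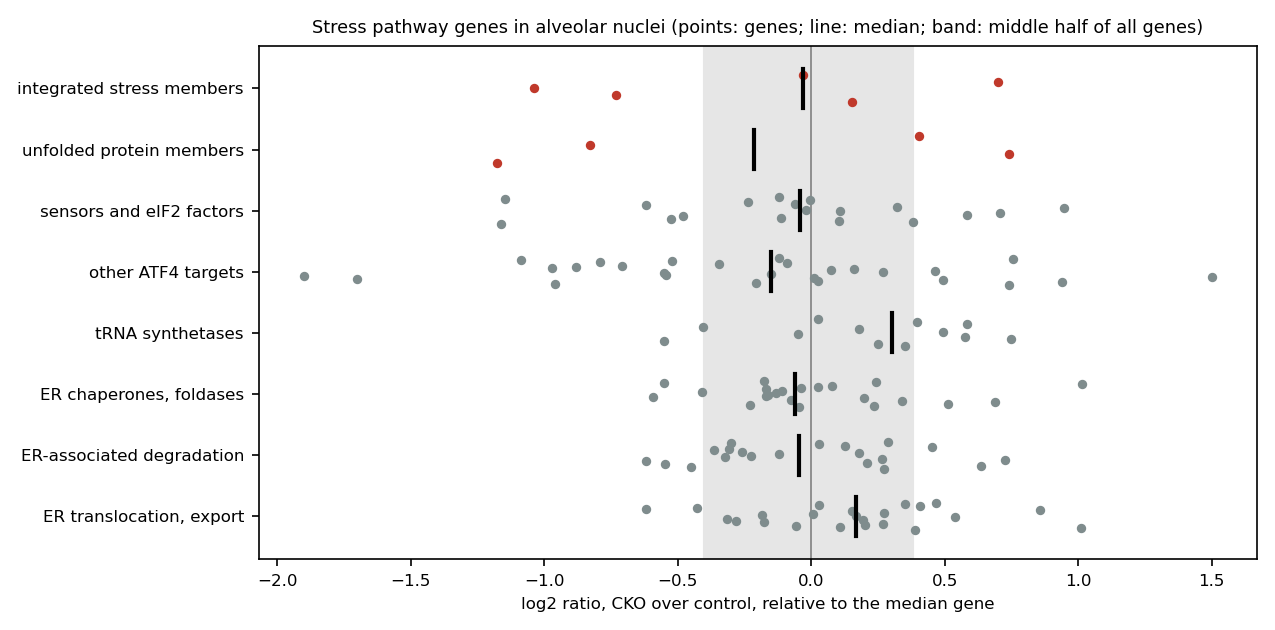
Relative log2 ratios in alveolar nuclei (CKO library over control) of the members, in red, and of 6 pathway lists, in grey, 1 point per gene, with the list median as a black line and the middle range of all genes as a band. Medians run from -0.21 for the unfolded protein members to 0.30 for the tRNA synthetases, and each list except the tRNA synthetases has genes past 1.5-fold on both sides.

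Open chromatin was compared in 97973 regions where peaks of both libraries overlapped, scaled to the sum of counts in these regions (also written CPM below) and relative to the median region. Counts of a region come from each library's own peaks, whose bounds differ somewhat, and the coordinates printed span the peaks of both. The CKO library had 32 peaks within 10 kb of a member's start and control 30, of which 3 of the CKO library and 2 of control had no partner in the other library. The partnered peaks formed 28 shared regions, and each of the 10 genes had 1 over its start. Of the 28, 5 were higher in the CKO library, against 20.9% of all 92737 regions compared, and 3 were lower, against 15.6%. The 3 lower ones were all regions over a gene start.

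The region over the start of Ddit3 (chr10:127290232-127291110) had 717 counts (65.4 CPM) in the CKO library and 878 counts (95.7 CPM) in control, a relative log2 ratio of -0.78 (-0.93 to -0.64). That of Asns (chr6:7692695-7693566) had 263 counts (24.0 CPM) in the CKO library and 348 counts (37.9 CPM) in control, with -0.89 (-1.13 to -0.66). At Dnajb9 (chr12:44209746-44210680) 977 counts (89.1 CPM) were found in the CKO library and 1110 counts (121 CPM) in control, with -0.67 (-0.80 to -0.55). Regions over gene starts were low in the CKO library throughout the genome, with a median relative log2 ratio of -0.33 over 12366 such regions, of which 3.83% were higher and 24.3% lower. Set against that median, none of the 10 members' start regions was past 1.5-fold. Asns was then at -0.56, Ddit3 at -0.45 and Dnajb9 at -0.34, and Xbp1 was highest at 0.31.

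RNA and start region did not run together in every gene. Herpud1 RNA was higher, while its start region (chr8:94385911-94386826), which holds both elements printed above, had 498 counts (45.4 CPM) in the CKO library and 531 counts (57.9 CPM) in control, at -0.58 (-0.76 to -0.40). That value is on the scale of all regions, on which the median gene start stood at -0.33. Hspa5, with lower RNA, had 814 counts (74.3 CPM) in the CKO library and 737 counts (80.3 CPM) in control over its start (chr2:34771554-34772436), at -0.35, which is -0.01 against other gene starts. Atf4 lay at -0.07 and Xbp1 at -0.02 on the scale of all regions. The remaining start regions were those of Psat1 (-0.55), Trib3 (-0.38) and Chac1 (-0.28).

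By class, the start region of Xbp1 (chr11:5520425-5521334) had 133 counts (59.8 CPM) in transitional-like nuclei of the CKO library and 25 counts (30.3 CPM) in control, at 0.94 (0.31 to 1.62). It was the 1 member higher over its start in that class, against 12.9% of gene-start regions, and Asns (-1.05, -1.62 to -0.47) was the 1 lower, against 19.6%. In AT2-like nuclei, 0 were higher (4.24% of gene-start regions) and 3 were lower (24.5%), again Ddit3 (-0.79), Asns (-0.83) and Dnajb9 (-0.65). AT1-like nuclei had Trib3 higher (0.62, -0.06 to 1.36, against 14.5% of gene-start regions) and Ddit3 (-0.94) and Dnajb9 (-0.63) lower (18.7%).

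The 5 higher regions were all away from gene starts, and 4 of them had under 50 counts in each library. Across the genome 3.83% of gene-start regions were higher against 20.9% of all regions, so this placement was not particular to these genes. A region centred at -6964.5 bases from the start of Trib3 had 46 counts in the CKO library and 9 in control (1.86, 0.81 to 3.08), and one at -3046 bases had 44 counts in the CKO library and 15 in control (1.06, 0.19 to 2.01). Near Chac1, regions at 5719 bases (29 counts in the CKO library and 10 in control) and -6223.5 bases (19 counts in the CKO library and 7 in control) stood at 1.05 and 0.95, with intervals that held 0. The region at -10131 bases from the start of Herpud1 had 129 counts in the CKO library and 59 in control (0.64, 0.18 to 1.11). Whether these regions act on the gene they lie near is not known from these data.

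**Figure D5:**
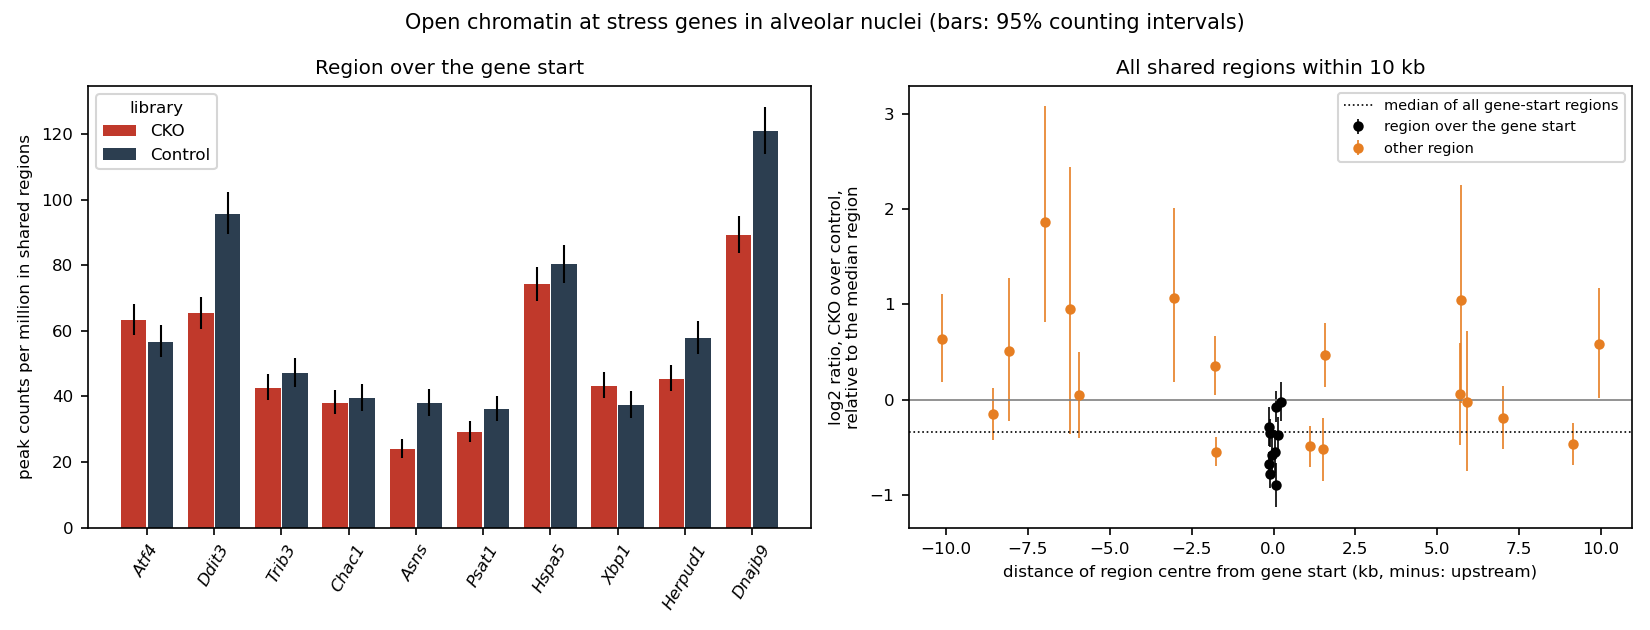
Left, CPM in the region over each gene start in alveolar nuclei, CKO library left of control; right, relative log2 ratio of all 28 shared regions against distance from the gene start, with 95% counting intervals. Start regions lie between -0.89 and -0.02 around the median of all gene-start regions (-0.33, dotted), and the 5 regions past 1.5-fold upward all lie away from a start.

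The promoters of the 10 genes ranged in GC content from 51% in Xbp1 to 68.3% in Herpud1, beside a median of 52.7% over all promoters. The other 9 genes lay above that median.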

How the data were processed

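Raw counts of UMIs per gene and of transposition events per peak were used as deposited, made by the authors with Cell Ranger ARC 2.0.1 per the file headers. The submitters' processing notes also name Seurat 4.1.0 and Signac 1.6.0, with no step. The notes list GRCm39 and GRCm38, and the files' gene starts fit GRCm38.p6 (86.2% of 25183 within 1000 bases, 29.7% equal, including Atf4).

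Kept nuclei had under 20% mitochondrial UMIs, 500 to 25000 UMIs from at least 300 genes, and 1000 to 100000 peak counts; 4365 barcodes of the CKO library and 8407 of control exceeded the mitochondrial limit. Scrublet (expected rate 0.08) called 0 doublets in the CKO library and 12 in control, so doublets were in effect not removed. RNA of both libraries was clustered together without integration in scanpy 1.11.5 (2000 variable genes without the members and pathway genes, 30 components, 15 neighbours, Leiden resolution 0.6, leidenalg 0.10.2). Clusters were named from 17 marker lists by mean log2 fold over the other clusters, at least 0.3 on 3 detected markers, and the names may differ from the study's.

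UMIs were summed per class and library. Ratios carry exact conditional-binomial intervals, and levels exact Poisson intervals. Classes with 100 nuclei in each library were compared, and levels given from 50. Reads without replicate libraries leave variation between mice unmeasured. Counts were scaled to nuclear-encoded UMIs or to shared regions (overlap of 1 base; at least 20 counts), and the calculation was tested on simulated data. Intervals came from scipy 1.17.1, neighbours from scikit-learn 1.9.0, overlaps of the stricter peak setting from bedtools 2.31.1 and plots from matplotlib 3.10.9, run in Python 3.11.15. The members and lists were chosen with earlier results of these data known. Named besides the members are the 2 highest and 2 lowest genes of each list with at least 50 UMIs, and the 5 genes most like each member group. Gm42418 was named after its values were seen. Of the listed symbols, Vimp and Ufd1l were not matched. Alternatives numbered 21, and 1 was added after seeing the data.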

Additional observations from a re-analysis of the deposited data

How the results depend on the processing

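No paired analysis was possible because there was 1 library per genotype. In alveolar nuclei the counts and medians mostly stayed near their values, with these exceptions. As CPM ratios, 4 members were higher and 1 lower, the member median was 0.44 and that of the unfolded protein genes 0.26. As CPM ratios with the rRNA-like loci also out of the total, 2 were lower and the unfolded protein median was 0.098. That median was -0.43 without a mitochondrial limit, -0.45 without any filter and 0.036 with control weighted to the class makeup of the CKO library. The member median was -0.46 after thinning, which left out 215 nuclei of the CKO library and 399 of control. The counts after thinning (2 higher and 3 lower) were close to the main ones but rested partly on other members. Asns and Trib3 gained a call, and Atf4, Ddit3 and Psat1 lost theirs. A single member was higher without the top 5% of nuclei and as a mean over nuclei, that is 1 each. At 2-fold, 0 were higher and 2 lower. Within 2 kb of a start, 0 regions were higher and the median was -0.49. Relative to the median gene-start region, an alternative chosen after seeing the data, 0 start regions were lower and their median was -0.13. Where no alternative's construction shows why a value moved, the cause was not tested. With few UMIs, the depth limits Chac1, Psat1, Trib3, Asns and Ddit3 most.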

Other observations

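Over 15 class-by-library sums, the 5 genes of 8603 whose log2 CPM most resembled the mean of the integrated stress genes were Gk (Pearson r of 0.92), Cox14 (0.90), Cycs (0.89), Ptges (0.87) and Psmc2 (0.87). Those most like the mean of the unfolded protein genes were Myd88 (0.86), Scp2 (0.84), Cyp4f13 (0.83), Fkbp15 (0.82) and Rab7 (0.80). Among the members themselves, Dnajb9 and Hspa5 had the highest r (0.74), with Psat1 and Trib3 next (0.65), and Herpud1 and Xbp1 were at 0.56. The points share 2 libraries and differ in depth, so these values are a description. Psat1 and Trib3 both had 0 UMIs in endothelial-like nuclei of the CKO library and in T and NK-like nuclei of control. Asns had 0 in T and NK-like nuclei of control, and Asns and Psat1 had 0 in dendritic-like nuclei of the CKO library. Chac1 had 0 UMIs in several of the sums and at most 7 in any. The r of Psat1 and Trib3, and the mean of the integrated stress genes, thus include points with no UMIs.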
